A study of Mus musculus with 2 samples.

Results

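The 35 genes described here are targets of the hypoxia-inducible factors (HIFs) and enzymes or transporters of glycolysis. They were taken by symbol from the 32285 features of the count tables, with 36 feature rows for 35 symbols because *Aldoa* has a second row with few UMIs. Of the 35, 19 belong to glucose uptake, glycolysis and its control (*Slc2a1* to *Slc16a3*), and 16 are other HIF targets (*Adm*, *Bnip3*, *Egln3* and the rest). All 35 were detected. HIF is a transcription factor whose alpha subunit is hydroxylated by prolyl hydroxylases (the products of *Egln1*, *Egln2* and *Egln3*) when oxygen is present, bound by the Vhl protein and degraded. When oxygen is short the alpha subunit pairs with Arnt, binds DNA at a short core sequence and raises genes for glucose use, pH balance, mitophagy and collagen folding. Solid tumors hold poorly perfused areas, and in them both tumor cells and infiltrating leukocytes are known to use this program.

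The cells came from subcutaneous MC38 tumors, a mouse colon carcinoma line, in C57BL/6 mice. MSA-2, a small molecule that is not a nucleotide and activates STING, was injected into the tumor 3 times at intervals of 3 days, and tumors were collected on day 7. The comparison tumors, labelled untreated, received the saline vehicle (with DMSO per the series design) on the same schedule. Each condition was 1 droplet 3′ library of sorted cells made from a pool of 3 mice, so no test between conditions was possible, the gate of the sort is not given in the sources used here and may set the sizes of the classes, mouse-to-mouse spread is unknown, and every interval below covers counting error only. The question was how the 35 genes differ between the MSA-2 and the untreated library within each cell class.

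The untreated library held 14386 barcodes with 198135335 UMIs and the MSA-2 library 14617 barcodes with 204387165 UMIs. After filters on genes and mitochondrial UMIs and removal of called doublets, 13334 and 13393 cells were kept, and 53 barcodes occurred in both libraries. Cells were put into classes by marker lists that hold no member. The keratin and epithelial list chosen for tumor cells did not mark them: its 10 genes summed to 24.7 CPM (UMIs scaled to a common class total, on which 12825 CPM is 1.28% of the UMIs of a class) in the untreated cells of the large deep class and to 8.32 CPM in the MSA-2 cells, mostly *Krt14*. The tumor class was therefore gated on 6 other genes chosen after their values were seen (*Gng11*, *Tm4sf1*, *Fosl1*, *Cdkn2a*, *Cav1* and *Fscn1*), and it is called tumor-gated below, although the study describes the cells of these libraries as immune cells. These 6 summed to 2556 and 3361 CPM in tumor-gated cells, against 307 and 503 CPM in macrophage-gated and 849 and 978 CPM in fibroblast-gated cells. They are not particular to tumor cells, with 3466 and 3139 CPM in the few endothelial-gated and 1764 and 1895 CPM in the few pericyte-gated cells. Their part in the member values of the other classes was not tested beyond the subtraction of free RNA given at the end. That estimate takes all UMIs of the 6 genes in another class as free RNA, so it removes too much where a class expresses them itself. The neutrophil list summed to 7.12 and 498 CPM in tumor-gated, 125 and 1157 CPM in macrophage-gated and 31.0 and 960 CPM in fibroblast-gated cells, and its part in the member values there was not tested. The fibroblast list summed to 2148 and 2789 CPM in tumor-gated cells, against 40382 and 33671 CPM in fibroblast-gated cells, and free RNA was not subtracted from tumor-gated cells. The monocyte list summed to 287 and 574 CPM in tumor-gated, 683 and 1749 CPM in macrophage-gated and 1294 and 3894 CPM in fibroblast-gated cells, and the macrophage list to 342 and 123 CPM in tumor-gated cells, of which 25.5% and 18.2% had a UMI of the leukocyte gene *Ptprc*. The part of these in the member values was not tested. The classes held 6201 untreated and 6985 MSA-2 tumor-gated cells, 3436 and 988 macrophage-gated, 20 and 2139 neutrophil-gated, and 275 and 431 fibroblast-gated cells.

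The HIF core is known to read as ACGTG or as GCGTG, and the promoters of the genes on which the results below turn are shown first. RefSeq (GRCm38.p6) gave a window from 250 bases before to 50 bases after the start for 31 of the 35 symbols (42 windows, several genes having more than 1 start). No entry was found under the symbols *Bnip3l*, *Ero1l*, *Slc2a3* and *Ndrg1* in the set of windows used, so no promoter was read for them. The letters ACGTG, read on both strands, were in 25 of the 42 member windows (59.5%), belonging to 23 genes, against 19.6% of all 32851 windows. GCGTG was in 54.8% of member windows against 32.4% of all. The palindrome CACGTG, which holds ACGTG on each strand, was in 7.14% against 7.15%. The members were listed as HIF targets and glycolysis genes, so a higher share of the cores was likely from the start. Both cores hold CG, the windows compared were not matched for CG content, and windows of 1 gene can overlap and count a match again. The shares are therefore a description only. Capitals below mark either core on the printed strand, or its reverse complement where the core is on the opposite strand. Each window is 300 bases and is printed on the gene's strand. *Adm* (adrenomedullin, chr7:110627407-110627706, plus strand), *Egln3* (prolyl hydroxylase, chr12:54203825-54204124, minus strand) and *Mgarp* (a mitochondrial protein, chr3:51396498-51396797, minus strand) are the members that differed most between the libraries in tumor-gated cells. *Bnip3* (a mitophagy receptor, chr7:138909457-138909756, minus strand) and *Pgk1* (phosphoglycerate kinase, chrX:106186850-106187149, plus strand) moved little there and followed the other members from cell to cell.
Adm: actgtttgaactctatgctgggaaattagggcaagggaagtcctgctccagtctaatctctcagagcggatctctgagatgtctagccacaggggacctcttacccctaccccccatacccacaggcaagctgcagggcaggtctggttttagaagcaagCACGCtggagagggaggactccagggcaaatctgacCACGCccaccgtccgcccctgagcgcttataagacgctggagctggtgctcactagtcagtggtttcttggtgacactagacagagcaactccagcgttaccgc
Egln3: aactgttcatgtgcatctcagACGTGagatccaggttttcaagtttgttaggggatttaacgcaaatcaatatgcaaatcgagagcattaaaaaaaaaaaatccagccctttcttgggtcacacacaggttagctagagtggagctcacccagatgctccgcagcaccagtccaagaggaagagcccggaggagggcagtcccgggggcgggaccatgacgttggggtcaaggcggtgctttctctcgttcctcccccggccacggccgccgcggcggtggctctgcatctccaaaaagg
Mgarp: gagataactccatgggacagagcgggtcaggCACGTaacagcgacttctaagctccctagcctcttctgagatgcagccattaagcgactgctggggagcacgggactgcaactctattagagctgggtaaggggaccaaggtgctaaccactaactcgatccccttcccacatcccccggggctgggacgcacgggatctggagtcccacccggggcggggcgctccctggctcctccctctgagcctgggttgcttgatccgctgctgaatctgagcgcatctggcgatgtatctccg
Bnip3: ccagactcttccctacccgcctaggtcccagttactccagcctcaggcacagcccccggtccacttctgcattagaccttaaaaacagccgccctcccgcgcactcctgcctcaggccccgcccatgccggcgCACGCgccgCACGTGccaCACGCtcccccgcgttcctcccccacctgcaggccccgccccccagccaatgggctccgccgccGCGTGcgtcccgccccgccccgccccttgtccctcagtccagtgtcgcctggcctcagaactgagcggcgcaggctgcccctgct
Pgk1: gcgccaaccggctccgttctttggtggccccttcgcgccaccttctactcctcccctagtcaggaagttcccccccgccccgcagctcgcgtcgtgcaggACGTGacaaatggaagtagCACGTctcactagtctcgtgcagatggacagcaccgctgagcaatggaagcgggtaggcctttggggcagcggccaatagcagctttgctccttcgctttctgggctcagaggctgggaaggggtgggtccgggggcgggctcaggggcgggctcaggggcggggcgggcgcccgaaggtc
Counted from the start site, the leftmost bases of the marked letters lie at -90 and -54 in *Adm*, at -229 in *Egln3*, at -219 in *Mgarp* and at -150 and -131 in *Pgk1*. In *Bnip3* matches start at -117, -108, -107, -99 and -35, and those at -108 and -107 overlap each other. A match of 5 letters is a description of the window and not a binding site.

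Tumor-gated cells carried the most member RNA in both libraries, and less of it in the MSA-2 library. The 35 genes took 12825 CPM of the untreated and 11251 CPM of the MSA-2 tumor-gated cells, a log2 ratio of -0.19 (95% interval -0.192 to -0.186). In macrophage-gated cells the sum was 7456 CPM untreated and 7935 CPM with MSA-2, a log2 ratio of 0.09 (0.074 to 0.106), which was 0.0017 (-0.026 to 0.029) in the cells that also lay in a macrophage cluster. In fibroblast-gated cells it was 8767 and 8451 CPM, a log2 ratio of -0.05 (-0.074 to -0.032), a value that changed sign with the way the class was drawn, as described with that class. In neutrophil-gated cells it was 8643 CPM from 259 UMIs in 20 untreated cells and 6262 CPM in 2139 MSA-2 cells, a log2 ratio of -0.46 (-0.64 to -0.28). That direction turned with TMM factors, scaling factors meant to set the bulk of genes equal (0.85, 0.67 to 1.03). In this class they did not do so: the median log2 ratio over all genes counted was 0.94 with them and -0.38 without. With a stricter cell filter the interval of the member sum held 0 (-0.19, -0.67 to 0.32). Within the untreated library the macrophage-gated sum lay below the tumor-gated sum by a log2 ratio of -0.783 (-0.790 to -0.775), and within the MSA-2 library by -0.50 (-0.52 to -0.49). Glycolysis was highest in tumor-gated cells of both libraries. The other hypoxia targets stood at 2128 and 1959 CPM in tumor-gated, 852 and 999 CPM in macrophage-gated and 2099 and 2104 CPM in fibroblast-gated cells. The untreated fibroblast-gated value includes 80 cells that lay in tumor clusters, at 3742 and 3148 CPM in the 2 clusters concerned, and in the fibroblast cluster alone the sum was 1568 CPM untreated and 2115 CPM with MSA-2 (log2 0.43, 0.38 to 0.49).

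**Figure D1:**
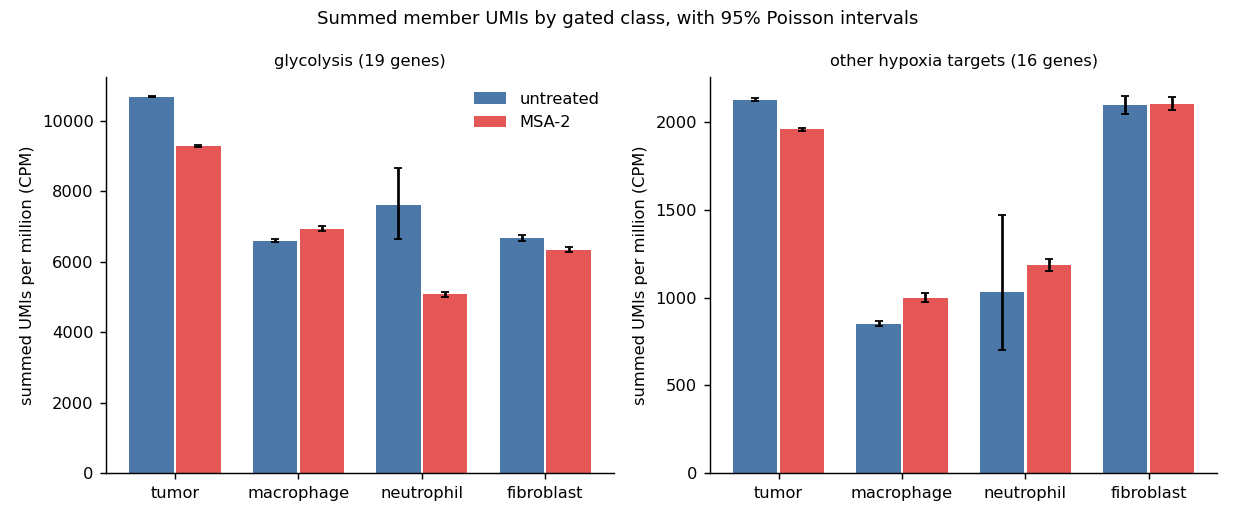
Summed CPM of the 19 glycolysis genes (left) and the 16 other hypoxia targets (right) in each gated class, untreated and MSA-2, 1 library each, with exact 95% Poisson intervals that cover counting error only. The glycolysis sum was highest in tumor-gated cells of both libraries (10697 and 9292 CPM), and the wide interval of the untreated neutrophil-gated cells reflects 20 cells.

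In tumor-gated cells most members differed little between the libraries, and most were lower with MSA-2. With a fold threshold of 0.58 on the log2 scale and at least 50 UMIs over both libraries, all 35 were counted, 2 were higher (*Adm* and *Slc2a3*) and 2 lower (*Egln3* and *Mgarp*), against 17.9% of all 16079 genes counted that were higher and 11.5% that were lower. The median log2 ratio was -0.14 over the members and 0.05 over all genes. Of the 35, 26 were lower and 9 higher by any amount, and in 2 (*Ddit4* and *Kdm3a*) the counting interval held 0.

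Of the 19 glycolysis genes of tumor-gated cells, 14 were lower and 5 higher by any amount, and none was lower past the threshold. *Gapdh*, the dehydrogenase in the middle of the pathway and the member with the most UMIs, went from 3611 to 3173 CPM (log2 -0.19). *Pgam1*, the phosphoglycerate mutase, went from 1023 to 751 CPM (-0.45), the lowest ratio of the 19. *Tpi1*, the triose phosphate isomerase, went from 615 to 472 CPM (-0.38). *Ldha*, which makes lactate, went from 943 to 809 CPM (-0.22), and *Slc16a3*, which exports it, from 177 to 151 CPM (-0.23). *Gpi1*, the glucose phosphate isomerase, had 367 and 312 CPM (-0.23), and the phosphofructokinase *Pfkp* 29.6 and 25.5 CPM (-0.21). *Pdk1*, the kinase that holds pyruvate back from the mitochondrion, went from 27.5 to 20.9 CPM (-0.40). *Pgk1* (-0.13), *Pkm* (-0.11) and *Pfkl* (-0.08) were closest to 0 of the genes that were lower. The 5 glycolysis members that were higher by any amount were *Hk2*, *Hk1*, *Slc2a1*, *Pfkfb3* and *Slc2a3*. *Hk2*, the inducible hexokinase, went from 115 to 148 CPM (0.37), *Hk1* from 47.3 to 51.5 CPM (0.12) and the transporter *Slc2a1* from 129 to 132 CPM (0.03). TMM factors moved each ratio of tumor-gated cells by -0.08, which turns the sign of *Slc2a1*. *Pfkfb3*, which makes the activator of phosphofructokinase, went from 5.42 to 6.67 CPM (0.30). *Slc2a3*, the neuronal and leukocyte glucose transporter, was the one glycolysis member past the threshold, at 143 UMIs (0.996 CPM) untreated and 328 UMIs (2.005 CPM) with MSA-2 (1.01, 0.72 to 1.30). Its level in tumor-gated cells was far below the 132 CPM of neutrophil-gated cells of the MSA-2 library, whose markers were also higher in the MSA-2 tumor-gated cells, as given above. *Gapdh*, *Ldha*, *Pgk1*, *Tpi1*, *Eno1* and *Aldoa* have processed pseudogenes or a second row, so reads of them can be lost or split in counting and their levels are uncertain to that extent.

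**Figure D2:**
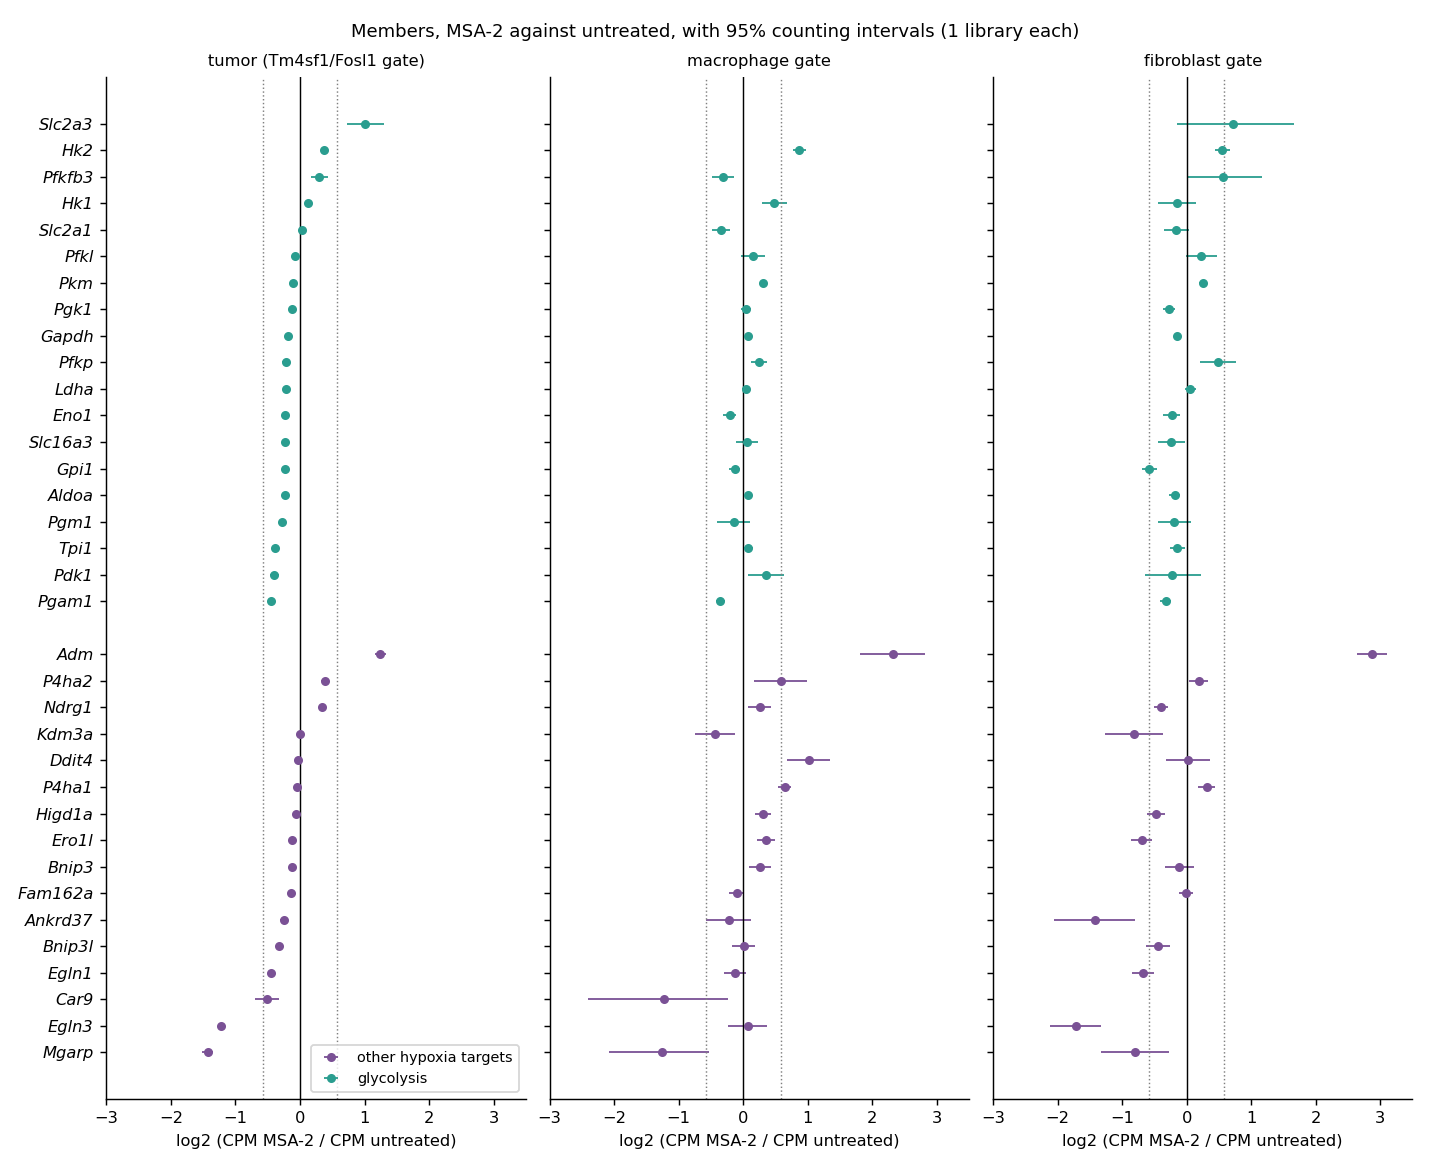
Log2 ratio of CPM, MSA-2 over untreated, for each member with at least 50 UMIs in tumor-gated, macrophage-gated and fibroblast-gated cells, with 95% counting intervals; dotted lines mark the fold threshold of 0.58. *Adm* lies to the right of the threshold in all 3 classes (1.247, 2.31 and 2.87), whereas *Egln3* lies to the left in tumor-gated and fibroblast-gated cells and at 0.07 in macrophage-gated cells.

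Among the other hypoxia targets of tumor-gated cells, *Mgarp* and *Egln3* were lower past the threshold and *Adm* higher. *Egln3*, whose enzyme acts on HIF alpha and is itself induced by HIF, went from 93.0 to 39.8 CPM (log2 -1.23, -1.27 to -1.18), and *Egln1*, the main oxygen sensor of the family, had 173 and 127 CPM (-0.45, short of the threshold). *Mgarp*, a mitochondrial protein induced by HIF, went from 29.3 to 10.9 CPM (-1.43, -1.51 to -1.35). *Car9*, the membrane carbonic anhydrase that is a common marker of hypoxic tumor areas, was low in both libraries, at 3.79 and 2.65 CPM (-0.52, -0.70 to -0.33). The mitophagy receptors *Bnip3l* and *Bnip3* had log2 ratios of -0.33 and -0.13, and *Ankrd37*, an ankyrin repeat gene, -0.25. *Adm*, which encodes the vasodilator peptide adrenomedullin, went the other way, from 10.0 to 23.8 CPM (1.247, 1.16 to 1.34). Fibroblast-gated cells held 51.2 and 374 CPM of it, and the part of the fibroblast RNA given above in its tumor-gated level was not tested. *P4ha2* (40.7 to 53.0 CPM, 0.38), an alpha subunit of collagen prolyl 4-hydroxylase, and *Ndrg1* (189 to 240 CPM, 0.34), a stress-induced cytoplasmic protein, were higher below the threshold, and the second collagen hydroxylase subunit, *P4ha1*, stood at 177 and 171 CPM. *Fam162a* (-0.14), *Ero1l* (-0.12), *Higd1a* (-0.07), *Ddit4* (-0.03) and *Kdm3a* (0.01) were within 0.15 of 0. Genes of 1 program thus had ratios from -1.43 to 1.247 in the same cells.

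*Egln3* and *Mgarp* were lower and *Adm* higher in the MSA-2 library at every level of the other hypoxia targets. Tumor-gated cells with at least 5000 UMIs (5944 untreated and 6669 MSA-2 cells, with 257 and 316 shallower cells left out) were thinned to 5000 UMIs each and put into 5 bins by the sum of the 13 remaining hypoxia targets. *Egln3* rose with the bin in both libraries, from 44.9 to 86.6 UMIs per 100 cells untreated and from 16.6 to 36.7 with MSA-2, and its log2 ratio between the libraries was -1.44, -1.39, -1.20, -1.07 and -1.24 from the lowest to the highest bin. *Mgarp* rose from 6.13 to 51.8 UMIs per 100 cells untreated and from 2.51 to 20.5 with MSA-2, with ratios of -1.29, -1.56, -1.68, -1.18 and -1.34. *Adm* rose from 1.77 to 26.4 and from 5.95 to 46.0, with ratios of 1.75, 1.64, 0.93, 1.31 and 0.80, the lowest bin (1.14 to 2.40) lying above the highest (0.52 to 1.08). All 15 counting intervals excluded 0. These 3 are the members that differed most in the same cells, so the bins describe that difference and are no independent support for it. The glycolysis sum, which no bin was cut on, rose along the same bins from 35.02 to 105 UMIs per cell untreated and from 30.4 to 92.5 with MSA-2. The top bin held 10.6% of untreated and 9.36% of MSA-2 cells. Median UMIs before thinning ranged from 20727 to 22206 over the untreated bins and from 19591 to 25594 over the MSA-2 bins, and the median mitochondrial share fell from 2.95% to 2.54% and from 3.07% to 1.87% between the lowest and the highest bin. The part of these in the values was not tested.

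**Figure D3:**
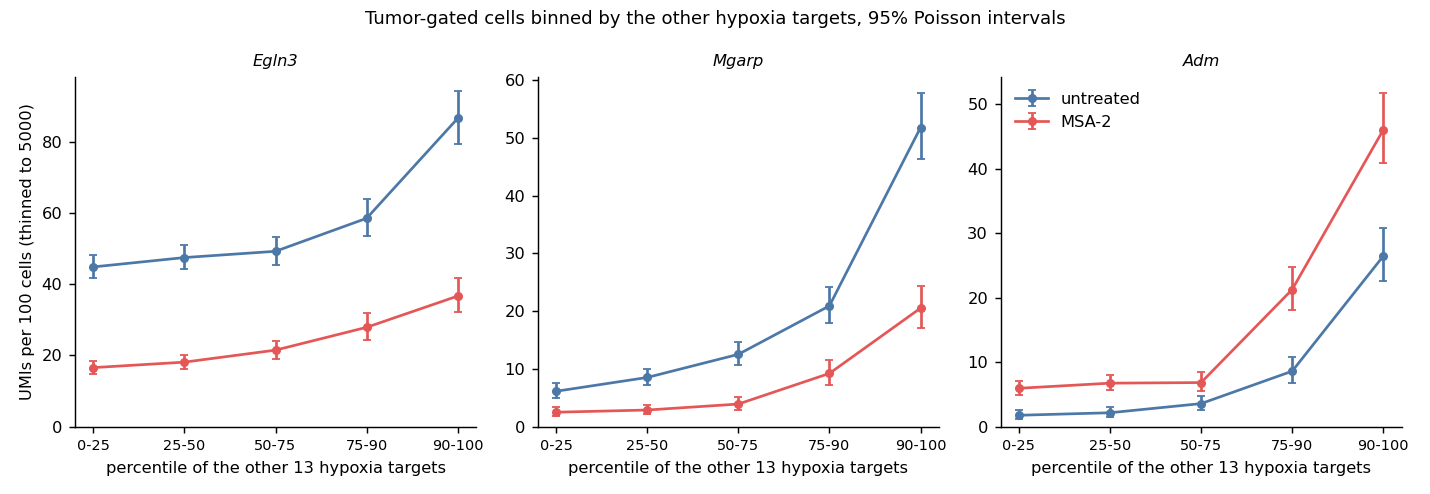
UMIs per 100 tumor-gated cells (each cell thinned to 5000 UMIs) of *Egln3*, *Mgarp* and *Adm* across 5 percentile bins of the other 13 hypoxia targets, with exact 95% Poisson intervals. All 3 genes are highest in the top bin of each library, and the MSA-2 line lies below the untreated line for *Egln3* and *Mgarp* and above it for *Adm* in every bin.

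Clustering of all cells on 2000 variable genes without the members split the tumor-gated cells almost wholly by library, so a cluster can stand for a library and not for a cell state. Clusters 0, 1 and 2 held 1914, 2606 and 1523 untreated tumor-gated cells, and clusters 7, 17 and 3 held 2357, 3276 and 1012 MSA-2 cells. The member sum differed more among the clusters of 1 library than between the libraries. It was 14887 CPM in cluster 0 (led by *Enpp2* and *Ogn*), 12855 CPM in cluster 1 (*Whrn*, *Rrm2*) and 9705 CPM in cluster 2 (*Csmd3*, *Robo2*) of the untreated library, and 13212 CPM in cluster 7, 9992 CPM in cluster 17 (*Pcdh9*, *Gas7*) and 8738 CPM in cluster 3 (*Tenm3*, *Rsad2*) of the MSA-2 library. The lower sum of the MSA-2 library was therefore not a feature of each of its clusters. Clusters 1 and 7 were the deepest, with median UMIs of 28013 and 27096, and clusters 2 and 3 the shallowest, with 15095 and 16222. Since the clusters follow the library, many genes did not overlap between the 3 untreated and 3 MSA-2 clusters: of 15904 genes counted, 12.5% were lower and 14% higher in every MSA-2 cluster than in every untreated one. Of the 35 members 4 were lower in this way (*Egln3*, *Mgarp*, *Pdk1* and *Pgm1*) and 1 higher (*Slc2a3*), shares near or below those of all genes. *Mgarp* was at 24.5 to 40.6 CPM in the untreated and 5.98 to 15.1 CPM in the MSA-2 clusters, and *Egln3* at 62.0 to 134 CPM and 36.8 to 53.5 CPM. *Adm* did overlap, with 8.02 to 14.9 CPM in the untreated clusters and 12.7, 23.9 and 24.6 CPM in clusters 3, 17 and 7. For the few cells of 1 library inside a cluster of the other, the ratios varied by gene and cluster. The member sum had log2 ratios of -0.32 (-0.36 to -0.28), -0.45 (-0.50 to -0.40) and -0.42 (-0.47 to -0.37) in clusters 0, 1 and 2 and of 0.21 (0.16 to 0.26) in cluster 3, each resting on 24 to 36 cells of the rarer library. The 33 MSA-2 cells of cluster 2 had 133 CPM of *Egln3* (57 UMIs), a log2 ratio of -0.02 (-0.42 to 0.36) against the untreated cells there, the 25 of cluster 0 had 96.2 CPM (-0.40, -0.85 to 0.02) and the 24 of cluster 1 had 34.3 CPM (-0.86, -1.81 to -0.05). *Adm* had ratios of -1.83, -1.49 and 0.06 in clusters 0, 1 and 2 and 0.40 in cluster 3, from 1 to 4 UMIs in the rarer library, and every interval for it held 0. *Mgarp* was lower in the MSA-2 cells of cluster 1 (-2.10, -5.15 to -0.25, from 2 MSA-2 UMIs) and cluster 2 (-1.88, -4.16 to -0.33, from 3), and at -0.69 (-1.65 to 0.12) in cluster 0. In cluster 3, which held 36 untreated cells, *Egln3* had a ratio of -0.66 (-1.14 to -0.13) and *Mgarp*, from 5 untreated UMIs, 0.06 (-1.18 to 1.70).

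**Figure D4:**
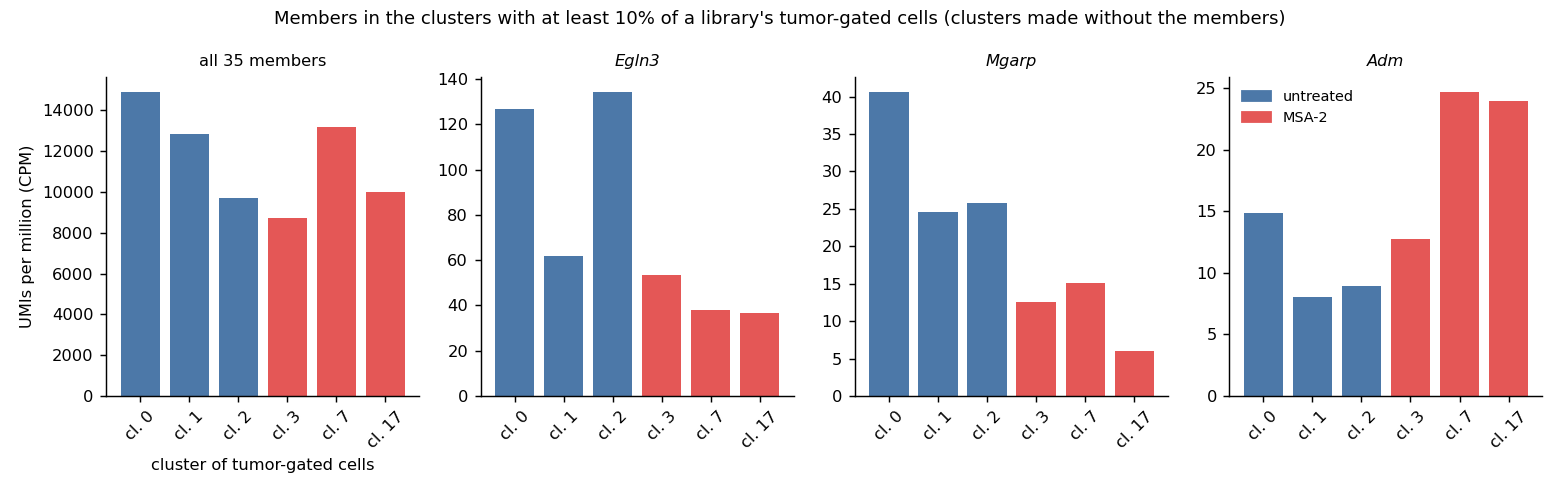
CPM of all 35 members, *Egln3*, *Mgarp* and *Adm* in the 6 clusters that held at least 10% of a library's tumor-gated cells, untreated clusters in blue and MSA-2 clusters in red. The member sum overlaps between the libraries, from 9705 to 14887 CPM and from 8738 to 13212 CPM, and *Egln3* and *Mgarp* are among the 12.5% of all genes that are lower in every MSA-2 cluster.

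From cell to cell, the summed members spread widely, and a core of glycolysis genes followed the sum while other members did not. At 5000 UMIs per cell the median member share was 1.02% of UMIs in untreated and 0.82% in MSA-2 tumor-gated cells, and the 5th to 95th percentiles were 0.48% to 2.78% and 0.42% to 2.42%. Above 2.04%, the 90th percentile of both libraries together, lay 697 untreated cells (11.7%, exact binomial interval 10.9% to 12.6%) and 522 MSA-2 cells (7.83%, 7.19% to 8.50%). For the other hypoxia targets alone the shares above their own 90th percentile were 10.8% (10.0% to 11.6%) and 9.12% (8.44% to 9.83%), a smaller gap. Across tumor-gated cells the glycolysis sum and the sum of the other hypoxia targets had a Spearman rho of 0.58 untreated and 0.52 with MSA-2. These cells share a library and a fixed depth, and the values are a description. *Pgk1* (0.69 and 0.62 with the sum of the other members), *Gapdh* (0.69 and 0.64) and *Ldha* (0.68 and 0.66) followed the rest most closely, and of the other hypoxia targets *Fam162a*, a mitochondrial protein, did (0.60 and 0.57). *Egln3* (0.04 and 0.08), *Hk2* (0.01 and -0.01) and the histone demethylase gene *Kdm3a* (0.04 and 0.00) hardly followed the sum, although *Egln3* had a UMI in 33.6% of the thinned untreated cells. Their untreated levels (93.0, 115 and 29.8 CPM) were far below those of *Pgk1*, *Gapdh* and *Ldha* (791, 3611 and 943 CPM). Sparse counts lower a rank correlation, and the part of abundance in this contrast was not tested.

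**Figure D5:**
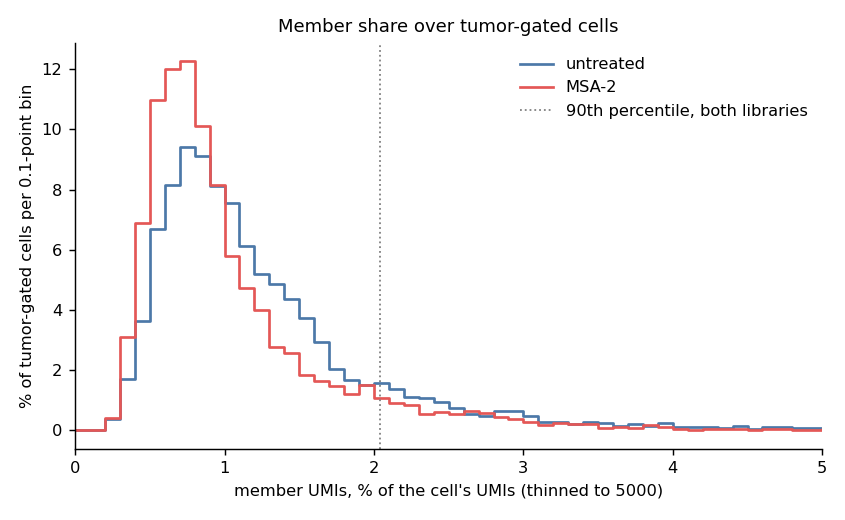
Distribution of the member share of UMIs over tumor-gated cells thinned to 5000 UMIs, 5944 untreated and 6669 MSA-2 cells of 1 library each, with the 90th percentile of both libraries dotted. The median is 1.02% in untreated and 0.82% in MSA-2 cells, and both libraries have a long tail to the right.

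The macrophage gate did not hold the same cells in both libraries. Of the untreated cells, 2616 were in cluster 4 (led by *Apoe* and *C1qc*) and 678 in cluster 5, whereas 731 of the 988 MSA-2 cells were in cluster 8, whose leading genes (*Ifnb1*, *Chil3*, *F13a1*, *Ms4a4c* and *Ly6c2*) hold 4 markers of the monocyte list and none of the macrophage list. The gate's values are therefore given beside those within clusters. Of 34 members counted, 5 were higher and 2 lower, against 12.3% and 16.6% of all 11404 genes counted; the median log2 ratio was 0.07 over the members and -0.15 over all genes. *Adm* went from 3.06 CPM (62 UMIs) to 15.2 CPM (78 UMIs), a log2 ratio of 2.31 (1.81 to 2.82). The monocyte list, given above, and the fibroblast list (331 and 567 CPM) were also higher in these MSA-2 cells, *Adm* was at 115 CPM in monocyte-gated and 374 CPM in fibroblast-gated cells of that library, and their part in its ratio was not tested. *Ddit4*, an inhibitor of mTORC1, went from 11.1 to 22.4 CPM (1.01), *Hk2* from 112 to 205 CPM (0.87, 0.76 to 0.98), *P4ha1* from 139 to 217 CPM (0.64) and *P4ha2* from 9.08 to 13.6 CPM (0.59, 0.17 to 0.99). *Mgarp* (161 and 17 UMIs, -1.26) and *Car9* (83 and 9 UMIs, -1.22) were lower. *Egln3* stood at 21.2 and 22.2 CPM (0.07, -0.24 to 0.37), and at 11.1 and 18.5 CPM (0.74) after free RNA was subtracted. *Pkm*, the last kinase of glycolysis, went from 867 to 1071 CPM (0.31), *Pgam1* from 497 to 388 CPM (-0.36) and *Slc2a1* from 126 to 99.5 CPM (-0.34).

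Within the clusters that both libraries shared, the member sum moved in opposite directions: in cluster 4 it was 7191 CPM over 2616 untreated cells and 6288 CPM over 83 cells with MSA-2 (log2 -0.19, -0.25 to -0.13), and in cluster 16, led by *Ccl8*, *Pf4* and *Folr2*, 5576 CPM in 57 and 7857 CPM in 166 cells (0.49, 0.42 to 0.57). Over all gated cells that were also in a macrophage cluster (3384 untreated and 254 MSA-2), the sum had a log2 ratio of 0.0017 (-0.03 to 0.03), and 5 of 34 members were higher and 3 lower, against 15.2% and 20.5% of 11047 genes counted there. The higher members were *Adm* (2.20, from 61 and 22 UMIs), *P4ha2* (0.94), *Hk1* (0.80), *Ddit4* (0.79) and *P4ha1* (0.64), and the lower were *Mgarp* (-0.85), *Slc2a1* (-0.77) and *Egln3* (-0.65, from 419 and 21 UMIs). *Hk2* then had 0.44, below the threshold. *P4ha1* was higher in cluster 4 (0.81, 0.51 to 1.11) and in cluster 16 (1.15, 0.61 to 1.74).

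Fibroblast-gated cells gave *Adm* its highest level of the 4 classes, 51.2 CPM (165 UMIs) untreated and 374 CPM (2190 UMIs) with MSA-2, a log2 ratio of 2.87 (2.639 to 3.105). It was higher in each of the 5 bins of the other hypoxia targets, by 2.69 to 3.24. The median log2 ratio was -0.17 over the members and -0.19 over all genes. Of 34 members counted, 2 were higher (*Adm* and *Slc2a3*, the latter at 15 and 45 UMIs) and 6 lower, against 11.4% and 21.2% of all 9764 genes counted. The 6 were *Egln3* (47.2 to 14.3 CPM, -1.72), *Ankrd37* (-1.42), *Kdm3a* (-0.81), *Mgarp* (-0.79), the endoplasmic reticulum oxidase *Ero1l* (182 to 113 CPM, -0.69) and *Egln1* (162 to 101 CPM, -0.68). After free RNA was subtracted, *Egln3* was at 24.8 and 1.73 CPM (-3.84) and *Mgarp* at 15.3 and 11.4 CPM (-0.42, short of the threshold). These values assume that fibroblasts do not express the 6 tumor-gate genes, which was not tested.

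These 6 did not hold when fibroblast-gated cells outside the fibroblast cluster were left out. Of the 275 untreated cells 80 lay in clusters 0 and 2, which were otherwise tumor-gated, and carried 16304 and 12139 CPM of members, against 6598 CPM in the 192 cells of cluster 13, the cluster led by *Col1a2* and *Col1a1*. Of the 431 MSA-2 cells 421 lay in cluster 13. Within cluster 13 the member sum was 6598 CPM untreated and 8490 CPM with MSA-2, a log2 ratio of 0.36 (0.34 to 0.39), and 8 of 34 members were higher and none lower, against 12.6% and 18.8% of 9441 genes counted there. The 8 were *Adm* (64.3 to 378 CPM, 2.56), the phosphofructokinase *Pfkl* (0.82), *P4ha1* (148 to 257 CPM, 0.80), *Ero1l* (66.0 to 113 CPM, 0.77), *Slc2a1* (61.3 to 104 CPM, 0.76), *Bnip3* (46.2 to 75.6 CPM, 0.71), *Pdk1* (0.68, from 29 and 116 UMIs) and *Fam162a* (236 to 367 CPM, 0.64). *Egln3* there was at 9.93 and 14.3 CPM, from 23 and 83 UMIs (0.53, -0.15 to 1.26), and *Mgarp* at 10.4 and 11.2 CPM. *Adm* (higher) and *Mgarp* (lower) were the members past the threshold in the same direction in tumor-gated, macrophage-gated and fibroblast-gated cells. *Adm* stayed past it in all 9 alternatives computed for it in each of these classes, and *Mgarp* in all 9 in tumor-gated and macrophage-gated but in 5 of 9 in fibroblast-gated cells.

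The untreated library held few neutrophil-gated cells, 20 with 29965 UMIs. Of these cells 7 lay near the gate's limit, against 33 of the MSA-2 cells, and neutrophil markers took 35375 CPM over the 20 cells and 112406 CPM over those with MSA-2; the part of this in the ratios was not tested. In the comparison 9 of 30 members counted were higher and 11 lower, against 33.6% and 44.3% of all 5171 genes counted, so the ratios there are imprecise. The median log2 ratio was -0.48 over the members with UMIs in both libraries and -0.38 over all genes. The 9 include *Ddit4* and *Kdm3a*, which had no untreated UMI, and in 23 of the 30 the counting interval held 0. With TMM factors, which raised each neutrophil ratio by 1.31, 22 were higher and 1 lower, against 60.2% and 10% of all genes under the same factors. Only the MSA-2 library gives the levels of the class with narrow counting intervals. Its neutrophil-gated cells had 20.3% of UMIs put down to free RNA, and subtraction took their member sum from 6262 to 5108 CPM. The 6 tumor-gate genes summed to 400 and 608 CPM in neutrophil-gated cells, and their part in the levels was not tested further. *Slc2a3* was at 132 CPM (556 UMIs) in the 2139 neutrophil-gated cells of the MSA-2 library, against 2.005 CPM in tumor-gated and 2.34 CPM in macrophage-gated cells of that library. *Egln3* was at 139 CPM (585 UMIs), above the 39.8 CPM of tumor-gated and 22.2 CPM of macrophage-gated cells, and *Slc16a3* at 278 CPM, against 151 and 72.5 CPM. *Ero1l* was at 305 CPM, against 241 and 108 CPM. The glycolysis sum was 5075 CPM, against 9292 CPM in tumor-gated and 6936 CPM in macrophage-gated cells, with *Gapdh* at 1305 CPM, *Ldha* at 406 CPM and *Tpi1* at 205 CPM. Not every glycolysis member was lower: *Pfkp* was at 101 CPM and *Pfkfb3* at 70.1 CPM, above the 25.5 and 6.67 CPM of tumor-gated cells. Of the *Egln3* UMIs of the untreated neutrophil-gated cells there were 9 (300.4 CPM), and of *Slc2a3* 6 (200.2 CPM).

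The other genes of the pathway were taken from a list of 30 HIF subunits, regulators, further HIF targets and glycolysis isoforms, and from a list of 15 genes of respiration. In tumor-gated cells 28 of the 30 were counted, 4 were higher and 2 lower, against the 17.9% and 11.5% of all genes. The 5 highest over both lists were the HIF-2 alpha gene *Epas1* (58 and 308 UMIs, 0.40 to 1.88 CPM, log2 2.22), the lysyl oxidase *Lox* (2.31 to 8.56 CPM, 1.89), the glycogen branching enzyme *Gbe1* (24.8 to 42.6 CPM, 0.78), *Stc2* (5.49 to 8.64 CPM, 0.65) and the lipid droplet gene *Hilpda* (62.1 to 90.1 CPM, 0.54). Fibroblast-gated cells of the MSA-2 library held 127 CPM of *Epas1* and 869 CPM of *Lox*, the fibroblast list was higher in MSA-2 tumor-gated cells as given above, and its part in these ratios was not tested. Among the lowest were *Ldhb*, the lactate dehydrogenase subunit of oxidative tissues (3.502 to 1.31 CPM, -1.42), the transcriptional repressor *Bhlhe40* (187 to 120 CPM, -0.64), *Aldoc* (48 and 37 UMIs, -0.56) and *Ndufa4* of the respiratory chain (557 to 390 CPM, -0.52). The 15 respiration genes had a median log2 ratio of -0.17. The HIF-1 alpha gene *Hif1a* went from 89.0 to 115 CPM (0.37), whereas *Vegfa*, the vascular growth factor and a classical target, went from 126 to 91.6 CPM (-0.46). In macrophage-gated cells 7 of 25 counted were higher and 9 lower, against 12.3% and 16.6% of all genes, with *Hilpda* from 131 to 437 CPM (1.74) and *Bhlhe40* from 119 to 58.4 CPM (-1.03). In fibroblast-gated cells 9 of 25 were higher and 8 lower, against 11.4% and 21.2% of all genes, with *Epas1* from 16.5 to 127 CPM (2.95) and *Bhlhe40* from 318 to 111 CPM (-1.52). The fibroblast-gated values include the cells outside cluster 13.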

How the data were processed

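UMI counts of 2 droplet 3′ libraries were used as the authors deposited them, per gene and barcode. The submitters' processing notes name Cell Ranger 7.0.0 and Seurat 4.3.0 with build mm10, and the file header names Cell Ranger 7.0.1. How doublets were treated before deposit is not given in the sources used here. The cell filter required 500 detected genes and a mitochondrial share no higher than 20%. Doublets called per library with Scrublet in scanpy 1.11.5 (5.02% and 4.08%) were removed. Each cell's share of UMIs in 12 marker lists was scaled to the 50 cells highest for that list. A class was given where the leading list reached 0.05, was 1.25 times the next and had at least 3 markers. Near the limit (below 0.1) lay 366 and 281 tumor-gated, 52 and 22 macrophage-gated, 7 and 33 neutrophil-gated, and 17 and 3 fibroblast-gated cells. UMIs were summed per class and library and divided by the class total (CPM). Intervals are exact Poisson, conditional binomial (ratios) and Clopper-Pearson (shares). Only the ratio intervals were tried on simulated data. Those data were Poisson counts, so the trial cannot show how the intervals fare with spread between cells or mice. Clusters came from 2000 variable genes, 30 components and the Leiden method. Members and lists were chosen with earlier results of these data known. All members are named; of the other pathway and respiration genes the 5 highest and 5 lowest in tumor-gated cells are named, except for a result that is not reported here, and further genes (*Hif1a*, *Vegfa*, and *Hilpda*, *Bhlhe40* and *Epas1* in other classes) after their values were seen. Alternatives covered cell filters, doublets, gate limits, cluster membership, TMM factors (edgeR 4.0.16), equal weight per cell, free RNA, totals, minimums and folds.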

Additional observations from a re-analysis of the deposited data

How the results depend on the processing

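No paired analysis was possible because each condition is 1 library without a replicate number, and for the same reason no library could be left out. The member sum of tumor-gated cells stayed lower with MSA-2 in all 11 alternatives, with log2 ratios from -0.26 to -0.16: -0.20 with the gate limit doubled, -0.26 with TMM factors and with equal weight per cell, -0.16 without mitochondrial and ribosomal genes in the total, and -0.17 both without the 3 most abundant members and with the class drawn by exclusion (4839 and 5446 cells with no *Ptprc* UMI and low in every other list, chosen after seeing the data). Its count of members past the fold stayed at 3 to 5. In macrophage-gated cells the sum was 0.0017 in cells also in a macrophage cluster, 0.13 with TMM factors, 0.041 with equal weight, 0.13 after free RNA was subtracted and 0.048 without the 3 most abundant members, and the count of 7 became 4 with 10 CPM added, with at least 200 UMIs, and with a fold of 1. In fibroblast-gated cells the sum turned positive at 0.36 in cells also in the fibroblast cluster, 0.18 with TMM factors, 0.12 after free RNA was subtracted and 0.0067 with the gate limit doubled; it was -0.11 with doublets kept, -0.018 with equal weight and -0.089 without the 3 most abundant members, and the count of 8 became 5 with 10 CPM added, 4 with at least 200 UMIs and 3 with a fold of 1. TMM factors raised each fibroblast ratio by 0.23, which gave 5 higher and 3 lower, against 17.6% and 11.4% of all genes. In neutrophil-gated cells the sum was -0.19 with the stricter cell filter and -0.25 without the 3 most abundant members. It was 0.85, reversed, with TMM factors, under which the median over all genes was 0.94. The causes were not tested. The free RNA subtracted was 14.5% and 16.7% of the UMIs of macrophage-gated, 18.9% and 20.3% of neutrophil-gated, and 40.02% and 32.58% of fibroblast-gated cells. These shares were not measured. They follow from taking every UMI of the 6 tumor-gate genes in a class as foreign and subtracting the profile of all kept cells to match. Expression of the 6 genes by the class itself was not tested. The median member share of tumor-gated cells kept its direction at 10000 UMIs and without thinning. *Adm*, *Egln3* and *Mgarp* of tumor-gated cells stayed past the fold in the same direction in all 9 alternatives computed for single genes, from 1.09 to 1.31, -1.30 to -1.20 and -1.60 to -1.35. Depth limits the neutrophil comparison (259 untreated member UMIs, of which *Slc2a3* had 6), *Car9* outside tumor-gated cells, and *Slc2a3* in macrophage-gated and fibroblast-gated cells.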

Other observations

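Monocyte-gated cells (481 untreated and 901 MSA-2), which belong in none of the comparisons above, had member totals of 8963 and 8938 CPM, and their other hypoxia targets stood at 986 and 1443 CPM. *Adm* was at 4 UMIs (2.07 CPM) untreated and 438 UMIs (115 CPM) with MSA-2, a log2 ratio of 5.80 with a counting interval from 4.43 to 7.68. *P4ha2* went from 7.23 to 37.99 CPM (2.39), *Ndrg1* from 80.0 to 193 CPM (1.27) and *Hk2* from 119 to 230 CPM (0.95). These genes were chosen after their values were seen. The fibroblast list summed to 379 CPM in the untreated and 3021 CPM in the MSA-2 monocyte-gated cells, against 33671 CPM in MSA-2 fibroblast-gated cells, and the neutrophil list to 344 and 2386 CPM. The part of either in these values was not tested. In cells gated on the NK and T cell list (1314 and 178), *Slc2a3* was at 44.96 and 26.6 CPM (-0.76) and the platelet-type phosphofructokinase *Pfkp* at 202 and 338 CPM (0.74).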
